A study of Mus musculus with 17 samples.

Results

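The genes described here build and cut the extracellular matrix: collagens, laminins, fibulins, thrombospondins, vitronectin, the collagen-modifying lysyl hydroxylases, the matrix metalloproteinases (Mmp), their tissue inhibitors (Timp) and the Adam proteases. The choice used gene names and no measured value, although earlier results of these data were known when it was made. A probe set had to be annotated to a single symbol. That symbol starts with Col and a digit, Lama, Lamb, Lamc, Mmp, Timp, Fbln, Adam or Thbs, or is Vtn, Plod1, Plod2 or Plod3. This gave 69 of the 6137 genes named on the arrays, measured by 82 probe sets: 27 collagens, 14 genes of the Adam family, 9 Mmp genes, 8 laminin chains, 3 fibulins, 3 thrombospondins, 3 Timp genes, Plod3 and Vtn. Col1a1 is among them, since no marker list used here holds it.

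RNA came from liver and hippocampus of male Rj:NMRI mice, an outbred stock, killed after 57 or 58 days on purified diets. The diets contained 1.1% of a fungal oil rich in arachidonate, 1.9% of a fish oil, both oils, or neither (control), and all of them shared the same fat-free base, milk fat, palm, sunflower and soybean oils and medium-chain triacylglycerol. Liver gave 1 RNA for each oil diet and 2 control RNAs, and hippocampus gave 1 RNA for each of the 4 diets. The genes are spread over a pair of oligonucleotide arrays, here chip A and chip B, and every RNA was read on each, apart from the both-oils hippocampus RNA, whose chip A was not analysed here. This made 17 arrays. The labels give 10 mice fed per diet, of which 5 were selected. The labels do not say whether an RNA came from 1 mouse or from several, so the error behind each p-value may be partly or wholly technical. Since cages held 10 mice, cage and diet cannot be told apart.

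Matrix genes work as sets. Fibrillar collagens such as types I and III carry tension, type IV collagen and laminins form the sheet of every basement membrane, and Mmp enzymes cut these proteins while Timp proteins block the enzymes. In liver, stellate cells and portal fibroblasts make most collagen and hepatocytes secrete vitronectin into plasma. In brain, fibrillar collagen is sparse and is found mainly around vessels and in the meninges, while Mmp9 and the Timp proteins are known for their part in remodelling around synapses.

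Promoter windows of RefSeq (build GRCm38.p6, from 250 bases before to 50 after an annotated start) were available for 46 of the 69 genes. The Mmp genes of chromosome 9 form a cluster and are shown first, because neighbours there gave different calls between tissues. Mmp3 was lower in liver, whereas Mmp13, Mmp10, Mmp12 and Mmp7 were not called. Capitals mark the AP-1 motif (TGAGTCA or its reverse complement TGACTCA), the binding sequence of Fos and Jun proteins, and the TATA motif (TATAAA). Each line gives the 100 bases before the start on the plus strand.
Mmp3 (chr9:7445722-7445821): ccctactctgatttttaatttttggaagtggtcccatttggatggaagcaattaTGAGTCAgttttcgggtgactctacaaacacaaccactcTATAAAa
Mmp10 (chr9:7502242-7502341): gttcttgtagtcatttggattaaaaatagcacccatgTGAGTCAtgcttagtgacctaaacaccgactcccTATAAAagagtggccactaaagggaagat
Mmp13 (chr9:7272414-7272513): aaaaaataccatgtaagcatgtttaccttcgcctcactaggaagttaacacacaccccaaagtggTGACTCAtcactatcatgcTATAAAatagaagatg
Mmp12 (chr9:7347274-7347373): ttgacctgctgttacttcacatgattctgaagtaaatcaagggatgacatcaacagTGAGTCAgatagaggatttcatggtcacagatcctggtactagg
Mmp7 (chr9:7691990-7692089): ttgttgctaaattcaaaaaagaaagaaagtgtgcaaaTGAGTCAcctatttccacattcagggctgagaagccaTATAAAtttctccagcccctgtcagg

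All 5 Mmp genes shown carry an AP-1 match in the 250 bases before a start. The window with the match was printed for each gene, and Mmp12 and Mmp7 each have another window without it. The match begins 46 bases before the start in Mmp3, 63 in Mmp10, 35 in Mmp13, 44 in Mmp12 and 63 in Mmp7. A TATA match follows it within the stretch in Mmp3, Mmp10, Mmp13 and Mmp7 and is not in these letters of Mmp12. Among all 32851 windows 4.46% hold the AP-1 motif on either strand, 12.4% hold TATAAA on either strand and 0.721% hold both; the motifs do not overlap each other. Of the 55 windows of the genes described here, 7 hold AP-1 (12.7%) and 4 hold both (7.27%), and those 4 are Mmp3, Mmp10, Mmp13 and Mmp7. A match is a description of the letters and not a measured site.

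The promoters of Vtn and Col3a1, which had the largest differences toward liver among the genes called, and of the inhibitors Timp2 and Timp3, both lower in liver, are shown with their CG pairs in capitals. These 4 were chosen with their values known. Each line again gives the 100 bases before the start, read in the direction of the gene.
Vtn (chr11:78499020-78499119, plus strand): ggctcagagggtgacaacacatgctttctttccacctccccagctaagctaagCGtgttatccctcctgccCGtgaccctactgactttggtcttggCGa
Col3a1 (chr1:45311438-45311537, plus strand): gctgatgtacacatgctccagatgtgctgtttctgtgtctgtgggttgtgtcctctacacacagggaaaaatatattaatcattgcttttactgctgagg
Timp2 (chr11:118355412-118355511, minus strand): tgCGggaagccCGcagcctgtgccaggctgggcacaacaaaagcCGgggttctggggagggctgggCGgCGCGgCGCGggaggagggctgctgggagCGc
Timp3 (chr10:86300312-86300411, plus strand): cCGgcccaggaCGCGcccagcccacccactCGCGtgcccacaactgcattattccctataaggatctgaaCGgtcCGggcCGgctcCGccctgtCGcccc

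The 250 bases before the start hold 9 CG pairs in Vtn and 0 in Col3a1, against 21 in Timp2 and 18 in Timp3. Col7a1 and Col19a1, which differed by more than Timp3 in the same direction, hold 7 and 10. In the same 250 bases, the windows of genes higher in liver hold 0 to 14 CG pairs (median 6, 11 windows of 8 genes) and those of genes lower in liver 1 to 29 (median 8.5, 10 windows of 8 genes), beside a median of 6 over all windows, so the ranges overlap.

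Between tissues, liver was set against hippocampus with diet as a covariate, to see which matrix genes mark either organ whatever the mice ate. The values of this comparison are deposited intensities scaled so that every array has a trimmed mean of 150; values under a floor of 15 were set to the floor before log2 was taken, and negative values are left by background subtraction. A gene was called at an adjusted p under 0.05 (limma, Benjamini-Hochberg over all probe sets tested) and a difference of at least 2-fold. Of the 69 genes 59 were above the floor on enough arrays to be tested. Liver was higher for 9 of them, beside 17.5% of all 5257 genes tested, and lower for 13, beside 26.1% of all genes, while 37 were not called. The shares of matrix genes lie near these backgrounds, and their median log2 difference was -0.02, beside -0.19 for all genes. Putting the 8 tested genes that were at the floor throughout a tissue at their bound leaves that median at -0.02. Those 8 reached the test through their values in the other tissue alone. In the floored tissue they had no spread, so their adjusted p-values are not read as support. The counts of calls include Col7a1, Lama1 and Lamb3 from among them. Without the filter on low values Mmp11, Lama3, Lamb3, Timp1 and Mmp9 were not called. After quantile normalization in place of scaling, 13 genes were higher in liver and 9 lower, so which direction held more genes depended on the normalization.

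**Figure D1:**
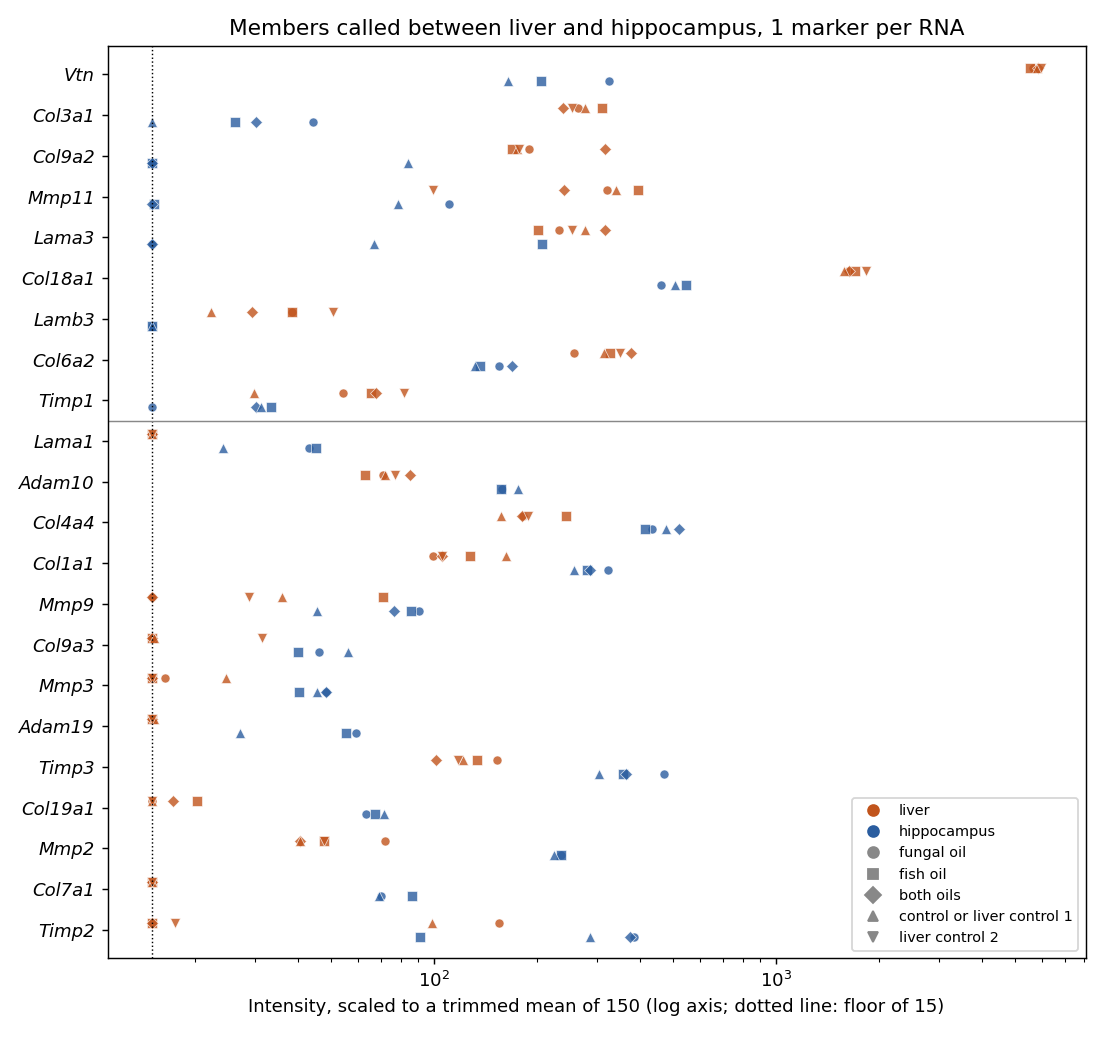
Scaled intensity (log axis) of the 22 called genes on every RNA, liver markers above hippocampus markers in each row, with marker shape giving the diet and the dotted line the floor of 15. The 9 genes above the grey line were higher in liver and the 13 below it lower; Vtn is at least 5546 in all 5 liver RNAs and at most 325 in hippocampus, and genes with markers on the dotted line have only a bound there. Genes of chip A have no hippocampus marker for both oils.

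Many of these genes were dim. In liver 34 of the 69 were above the floor on every array (49.3%, beside 59.9% of all genes), and in hippocampus 37 were (53.6%, beside 68.1%). Adam5, Col5a2, Col8a1, Col9a1, Lama4 and Thbs3 were at the floor on every array of both tissues, and Col1a2, Col22a1, Lamb1 and Lamc1 rose above it on too few arrays to be tested. For a bulk tissue, fewer cells of a type and less RNA per cell cannot be told apart in any of these values.

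The tissues were checked by marker lists. All 10 measured hepatocyte markers were higher in liver, with a summed intensity of 74976 to 97450 in liver RNAs and 635.6 to 987.4 in hippocampus RNAs. Of 7 neuronal markers 6 were lower in liver (sums of 110.2 to 143 in liver and 6264 to 6568 in hippocampus), as were 4 of 5 astrocyte and 4 of 5 oligodendrocyte markers. The liver label also names hepatocytes, but the livers were dissected whole, and genes of other liver cells were present: of 8 endothelial markers 3 were higher in liver (sums of 1527 to 2276, against 609 to 788.6 in hippocampus), and of 10 macrophage markers the Kupffer cell genes Clec4f and Cd5l were higher and Lyz2 and Csf1r lower. Of 12 markers of stellate cells, fibroblasts and smooth muscle, Dcn was higher in liver and Pdgfra, Vim and Thy1, which neurons also make, were lower (sums of 2165 to 2529 in liver and 5547 to 6624 in hippocampus). Thy1 makes up most of the hippocampus sum: without it, a choice made after seeing the data, the other 11 markers summed to 2150 to 2514 in liver and 1111 to 2262 in hippocampus, and the ranges overlap. Markers of choroid plexus and meninges summed to 1184 to 1503 in liver and varied from 1297 to 4493 between hippocampus RNAs. Of the 7 measured, Igfbp2 and Slc6a13 were higher in liver and Ptgds, Igf2 and Kl lower. Ptgds alone ranged from 626.8 to 3131 in hippocampus. Gapdh signal at the 3-prime end over that at the 5-prime end, which climbs as RNA breaks down, was 1.89 to 3.26 in liver and 0.840 to 0.947 on 6 of the 7 hippocampus arrays. The remaining one, chip B of the fish oil RNA, lists no value for the control probe sets. The part of RNA quality in the tissue differences was not tested, and handling that differed between the tissues cannot be told apart from tissue.

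Vitronectin, an adhesive glycoprotein of plasma and matrix that binds integrins and the plasminogen activator inhibitor, gave the largest difference toward liver among the genes called. Vtn read 5643, 5546 and 5869 in liver with fungal, fish and both oils and 5827 and 5974 in the liver controls, against 325 and 206 in hippocampus with fungal and fish oil and 165 in its control. Every liver RNA lay far above every hippocampus RNA, with a log2 difference of 4.73 (SE 0.19, adjusted p = 5.57e-06, limma). In liver the 5 RNAs averaged 5772 ± 173.9, and in hippocampus the 3 RNAs averaged 232 ± 83.4 (SD).

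The fibrillar collagens split. Col3a1, the type III collagen of pliable tissues, read 264, 310.0 and 239 in liver with fungal, fish and both oils and 277 and 254 in the controls, against 44.4, 26.3 and 30.3 in hippocampus with the same oils and -5.05 in its control. All 5 liver RNAs were above all 4 hippocampus RNAs, and the log2 difference was 3.38 (SE 0.30, adjusted p = 6.43e-05). A dimmer Col3a1 probe set on chip A did not show it (0.13, adjusted p = 0.679), reading 3.04 to 26.4 in liver and 6.02 to 16.1 in hippocampus.

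Col1a1, a chain of type I collagen, went the other way. It read 99.4, 127 and 106 in liver with fungal, fish and both oils and 162 and 106 in the controls, against 323, 281, 286 and 258 in hippocampus with fungal oil, fish oil, both oils and control. The groups did not overlap, and the log2 difference was -1.29 (SE 0.21, adjusted p = 0.00143). Its other probe sets gave -1.004 (adjusted p = 0.0208) and 0.08 (adjusted p = 0.876), all of them of the kind that can bind transcripts of a sequence family, and quantile normalization in place of scaling brought the main value to -0.95, just under 2-fold. Of the other fibrillar genes Col5a1 (-0.58, adjusted p = 0.172), Col2a1 (0.11) and Col11a1 (-0.09) were not called, and the 3 probe sets of Col1a2, the partner chain of Col1a1, were too dim to test.

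Among collagens of basement membranes, Col18a1 was higher in liver. Type XVIII collagen is a heparan sulfate proteoglycan whose fragment endostatin restrains vessel growth. Col18a1 read 1623, 1701 and 1638 in liver with fungal, fish and both oils and 1586 and 1837 in the controls, against 461 and 547 in hippocampus with fungal and fish oil and 507 in its control. The spread within each tissue was small beside the gap, and the log2 difference was 1.74 (SE 0.08, adjusted p = 1.32e-05).

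Type IV collagen did not move as a whole. Col4a4 read 182, 243 and 181 in liver with fungal, fish and both oils and 157 and 189 in the controls, against 434, 414, 522 and 478 in hippocampus with fungal oil, fish oil, both oils and control, a log2 difference of -1.27 (SE 0.16, adjusted p = 0.000482; -0.996 after quantile normalization, again just under 2-fold). Col4a1 and Col4a2, the most widespread chains, start 21 bases apart on opposite strands of chromosome 8 in GRCm38.p6. Col4a1 averaged 95.4 ± 12.7 in liver and 77.7 ± 4.73 in hippocampus, and Col4a2 averaged 101 ± 19.4 in liver and 104.5 ± 19.6 in hippocampus (SD, n = 5 and 3). Neither was called, with log2 differences of 0.23 (SE 0.19) and -0.02 (SE 0.18). Col4a3 and Col4a5 were at the floor on part of the arrays and were not called. Col15a1, a multiplexin close to Col18a1, had a difference of 0.96 that did not pass (SE 0.37, adjusted p = 0.0717).

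Of the 13 remaining collagens 10 were tested, 2 were higher in liver and 3 lower. Col9a2, a chain of the cartilage collagen type IX that coats fibrils, read 189.7, 169 and 316 in liver with fungal, fish and both oils and 175 and 177 in the controls, against -8.06, -3.03 and 12.1 in hippocampus with the same oils and 83.8 in its control. The log2 difference was 2.997 (SE 0.54, adjusted p = 0.00251), and the hippocampus control alone was above the floor there. Col9a3, another chain of the same collagen, ran opposite: 0, -4.06 and -5.06 in liver with fungal, fish and both oils and 15.2 and 31.4 in the controls, against 46.2 and 40.2 in hippocampus with fungal and fish oil and 56.3 in its control. That difference was -1.46 (SE 0.31, adjusted p = 0.00787) and it was no longer called without the liver RNA of the fungal oil diet (-1.39). The third chain, Col9a1, was at the floor throughout.

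Col6a2, a chain of the beaded microfibrils of type VI collagen, was higher in liver. It read 256, 327 and 379 in liver with fungal, fish and both oils and 315 and 349.9 in the controls, against 155, 136, 169.5 and 132 in hippocampus with fungal oil, fish oil, both oils and control (1.13, SE 0.15, adjusted p = 0.000599). Its partner Col6a1 was not called (-0.45, SE 0.35, adjusted p = 0.298) and ranged from 24.6 to 114 in liver and from 47.5 to 131 in hippocampus.

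Col7a1 and Col19a1 were measured in hippocampus and at or near the floor in liver. Col7a1, which forms the anchoring fibrils of skin, read from -59.9 to -9.11 in liver, against 70.3, 86.4 and 69.3 in hippocampus with fungal oil, fish oil and control. It was at least 5.00-fold lower in liver. Col7a1 was tested through its hippocampus values alone, and its floored liver values had no spread. Its adjusted p (0.000179, limma) is therefore not read as support. Col19a1, known in mice from hippocampal interneurons, read -7.09, 20.3 and 17.2 in liver with fungal, fish and both oils and -8.10 and 2.03 in the controls, against 63.3, 67.3 and 71.3 in hippocampus with fungal oil, fish oil and control (-2.04, SE 0.22, adjusted p = 0.000398). Col12a1, which links fibrils to their surroundings, had probe sets that disagreed in sign, 0.70 (adjusted p = 0.0147, under 2-fold) and -0.45 (adjusted p = 0.134), and the probe set behind the second value was below 0 in every liver RNA. With a floor 2.5 times as high, Col7a1 (-0.99), Col19a1 (-0.85) and Col9a3 (-0.35) were not called.

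**Figure D2:**
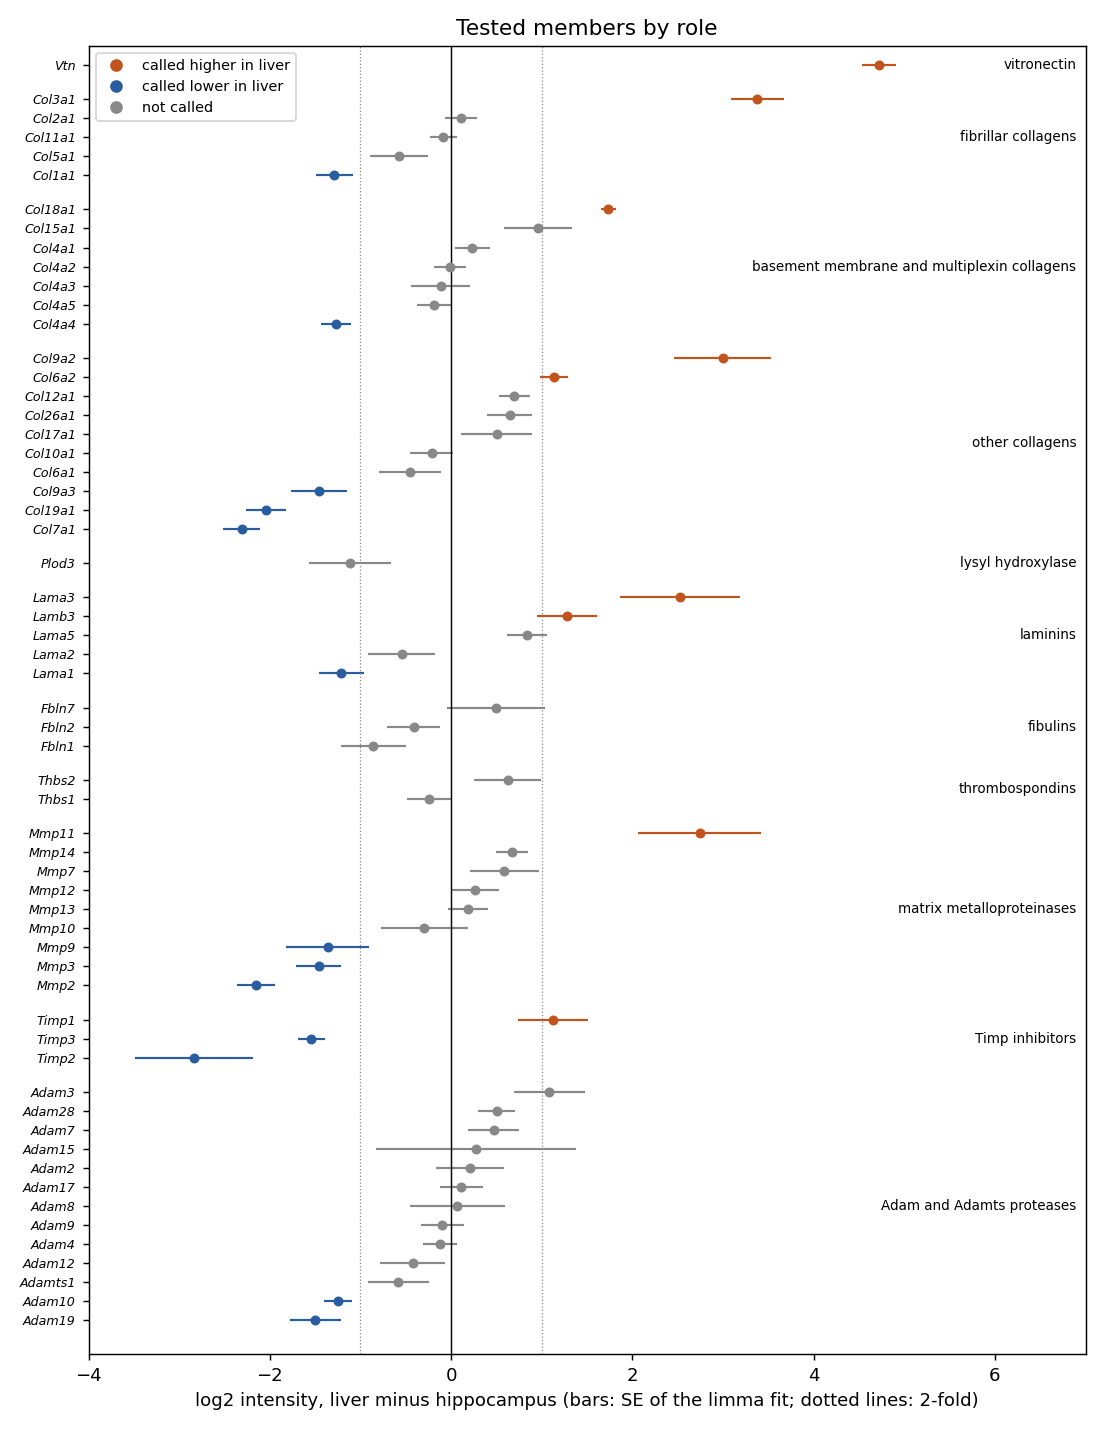
Log2 difference of the 59 tested genes, liver minus hippocampus, by role, with the SE of the limma fit as bars and dotted lines at 2-fold. Points right of 0 are higher in liver. The metalloproteinases run from -2.15 for Mmp2 to 2.74 for Mmp11 and the Timp genes from -2.83 for Timp2 to 1.12 for Timp1, so neither family lies on a single side.

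Laminins are trimers of an alpha, a beta and a gamma chain. Of the 8 chains 5 could be tested, 2 were higher in liver and 1 was lower. Lama3, the alpha chain of the laminin that anchors epithelia, read 232, 201 and 317 in liver with fungal, fish and both oils and 276 and 253 in the controls, against -77.6, 207, -32.3 and 66.7 in hippocampus with fungal oil, fish oil, both oils and control. The hippocampus RNA of the fish oil diet lay within the liver range, so the groups overlap. The log2 difference of 2.53 (SE 0.66, adjusted p = 0.0143) was not called without the RNA of either tissue from the fungal oil diet (2.10) or from the diet with both oils (1.97), and a dimmer Lama3 probe set could not be tested.

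Lamb3, the beta chain of the same laminin, read 38.5, 38.6 and 29.4 in liver with fungal, fish and both oils and 22.3 and 50.7 in the controls, and between 2.01 and 8.04 in hippocampus, where all 3 arrays were under the floor. It was at least 2.30-fold higher in liver. The adjusted p (0.0177, limma) sets liver values against floored hippocampus values with no spread and is not read as support. The call was lost without the hippocampus control, without the RNA of either tissue from the fungal or fish oil diet, or with the higher floor. Lama1, an alpha chain of early basement membranes that persists around brain vessels, was under the floor in all 5 liver RNAs. It read 43.2, 45.2 and 24.1 in hippocampus with fungal oil, fish oil and control, at least 2.41-fold lower in liver. The adjusted p (0.00699, limma) sets these values against floored liver values with no spread and is not read as support. With the higher floor Lama1 could not reach 2-fold, since its highest hippocampus value was 45.2. Lama5 (0.84, adjusted p = 0.0206, under 2-fold) and Lama2 (-0.55, adjusted p = 0.257) were not called.

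Fibulins and thrombospondins, which bridge matrix proteins and bind cells or growth factors, were not called. Fbln2 averaged 107 ± 48.9 in liver and 123 ± 26.6 in hippocampus (SD, n = 5 and 4), and Thbs1, which activates latent TGF-beta, averaged 64.2 ± 13.6 in liver and 77.3 ± 5.00 in hippocampus (n = 5 and 3). Plod3, a lysyl hydroxylase that also glycosylates collagen, read 69.9, 386 and 329 in liver with fungal, fish and both oils and 372 and 317 in the controls, against 468, 484 and 479 in hippocampus with fungal oil, fish oil and control. All liver RNAs lay below all hippocampus RNAs, but the difference of -1.11 (SE 0.45) did not pass, with an adjusted p of 0.0800.

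Of the 9 metalloproteinases 1 was higher in liver and 3 were lower. Mmp2, the gelatinase that many resting tissues express, read 71.9, 47.7 and 40.5 in liver with fungal, fish and both oils and 40.5 and 47.6 in the controls, against 236, 235 and 225 in hippocampus with fungal oil, fish oil and control. The hippocampus RNAs lay close together and clear of all liver RNAs, for a log2 difference of -2.15 (SE 0.21, adjusted p = 0.000275). Mmp14, the membrane enzyme that activates Mmp2, ran slightly opposite: it averaged 112 ± 23.0 in liver and 71.0 ± 6.71 in hippocampus (SD, n = 5 and 3), a difference of 0.67 that passed the p threshold but not 2-fold (adjusted p = 0.0186).

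Mmp3, a stromelysin that cuts many matrix proteins and activates other Mmp enzymes, read 16.4, -12.3 and -14.4 in liver with fungal, fish and both oils and 24.6 and -20.5 in the controls, against 48.4, 40.4, 48.4 and 45.4 in hippocampus with fungal oil, fish oil, both oils and control (-1.46, SE 0.25, adjusted p = 0.00202). With the higher floor this shrank to -0.28 and was not called. Mmp9, the gelatinase linked to synaptic plasticity, read 4.10, 70.8 and 2.05 in liver with fungal, fish and both oils and 35.9 and 28.7 in the controls, against 90.7, 85.9, 76.7 and 45.4 in hippocampus with fungal oil, fish oil, both oils and control. The liver RNA of the fish oil diet overlapped the hippocampus range. The difference of -1.36 (SE 0.46, adjusted p = 0.0386) was not called without the second liver control (-1.39), without the RNA of either tissue from the fungal oil diet (-0.99) or from the diet with both oils (-1.06), with 0.5 or 2.5 times the floor, or after quantile normalization (-1.03).

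Mmp11, a stromelysin that leaves the cell already active after cutting by furin, was higher in liver. It read 321, 396 and 241 in liver with fungal, fish and both oils and 342 and 99.5 in the controls, against 111, 15.2, -41.4 and 78.8 in hippocampus with fungal oil, fish oil, both oils and control. The second liver control fell inside the hippocampus range, and the log2 difference was 2.74 (SE 0.68, adjusted p = 0.0112). Of the cluster on chromosome 9 shown above, Mmp13, the main collagenase of rodents, averaged 160.5 ± 48.0 in liver and 133 ± 21.2 in hippocampus (SD, n = 5 and 4) and differed by 0.19 (SE 0.22). The stromelysin Mmp10 (-0.29, SE 0.48), the macrophage elastase Mmp12 (0.26, SE 0.27) and the epithelial matrilysin Mmp7 (0.59, SE 0.38) were under the floor on part of the arrays and were not called.

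All 3 Timp genes were called, 1 higher in liver and 2 lower. Timp2, which inhibits Mmp enzymes and also helps Mmp14 to activate Mmp2, read 155, 11.3 and -26.7 in liver with fungal, fish and both oils and 98.5 and 17.4 in the controls, against 386, 91.0, 374 and 286 in hippocampus with fungal oil, fish oil, both oils and control. The log2 difference was -2.83 (SE 0.65, adjusted p = 0.00816), although values varied widely within both tissues and the ranges overlapped. Timp3, the inhibitor that stays bound to matrix, read 153, 133 and 102 in liver with fungal, fish and both oils and 122 and 118 in the controls, against 473, 358, 365 and 304 in hippocampus with fungal oil, fish oil, both oils and control. These groups were clearly apart (-1.54, SE 0.15, adjusted p = 0.000107).

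Timp1, the inhibitor induced in injured and fibrotic tissue, read 54.3, 65.7 and 67.7 in liver with fungal, fish and both oils and 29.8 and 82.1 in the controls, against 6.05, 33.4, 30.3 and 31.3 in hippocampus with fungal oil, fish oil, both oils and control. The first liver control overlapped the hippocampus values. The difference of 1.12 (SE 0.39, adjusted p = 0.0424) was among the weakest calls: it was lost with any RNA left out except the first liver control, with values from 0.91 to 1.33, and with 0.5 or 2.5 times the floor.

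**Figure D3:**
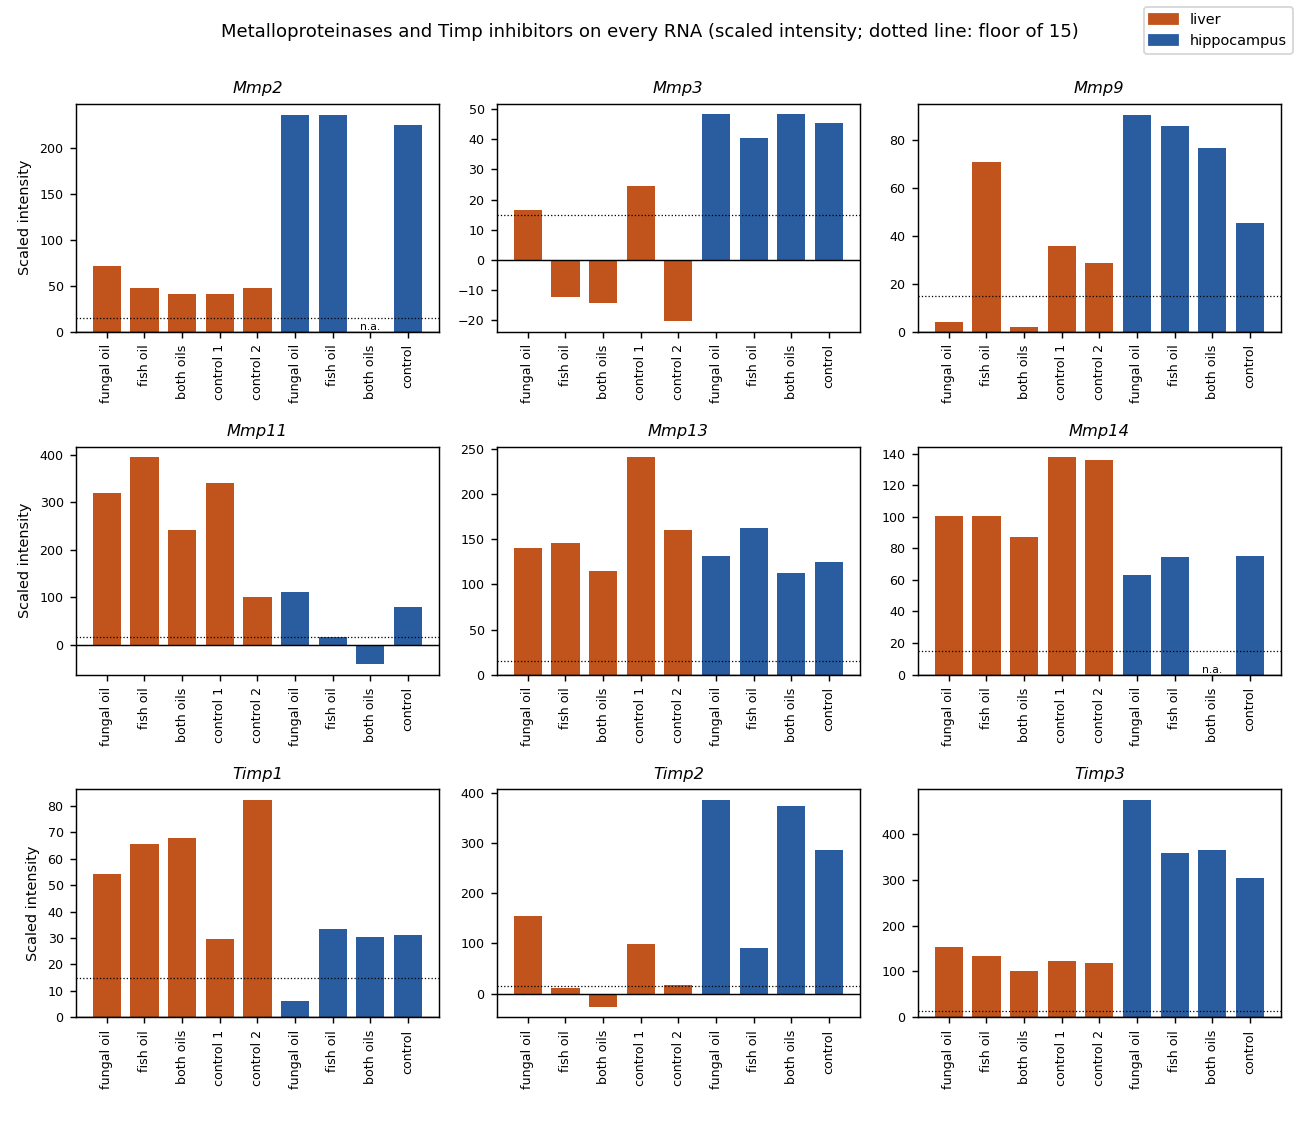
Scaled intensity of 6 metalloproteinases and the 3 Timp genes on each RNA, liver bars left of hippocampus bars, with the floor of 15 dotted and n.a. where no array was analysed. Mmp2 and Timp3 are taller in every hippocampus bar than in any liver bar, Mmp11 runs the other way except for the second liver control at 99.5, and Timp2 varies from 91.0 to 386 within hippocampus.

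Of the 14 genes of the Adam family, 13 were tested, 0 were higher in liver and 2 lower, Adam10 and Adam19. Adam10, the sheddase that releases Notch and amyloid precursor protein ectodomains, read 70.9, 63.0 and 85.0 in liver with fungal, fish and both oils and 71.9 and 77.0 in the controls, against 159, 158 and 177 in hippocampus with fungal oil, fish oil and control. The groups did not overlap (-1.25, SE 0.16, adjusted p = 0.000891), but a second Adam10 probe set gave -0.68 (adjusted p = 0.0682), and the call was lost after quantile normalization (-0.90) or with the mean over its probe sets (-0.96). Adam19, a sheddase of neuregulin, was at or barely above the floor in liver and read 59.2, 55.3 and 27.1 in hippocampus with fungal oil, fish oil and control (-1.50, SE 0.28, adjusted p = 0.00508), and its second probe set also passed (-1.14, adjusted p = 0.0129). With the higher floor the Adam19 difference was -0.37 and was not called. Adam9 averaged 58.6 ± 9.06 in liver and 60.6 ± 1.15 in hippocampus (SD, n = 5 and 3). Adam17, which sheds TNF, differed by 0.11 (SE 0.24). Adam3, a sperm protein in mice, missed the threshold narrowly (1.09, adjusted p = 0.0502) on values of 15.4 to 64.65 in liver and under the floor in hippocampus.

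Other genes of the matrix were looked at as a list of 74 partner symbols, in which Ctgf and Ccn2 name the same gene. The list covers adhesive proteins, proteoglycans, integrins, syndecans, collagen-folding enzymes and the plasminogen system. Of the 74 symbols 61 were measured and 50 tested. Liver was higher for 15, beside 17.5% of all genes tested, and lower for 13, beside 26.1%, while 22 were not called. The median log2 difference of the 50 was -0.18, beside -0.19 for all genes. Toward liver the largest were plasminogen Plg (6639 ± 344 in liver and under the floor in hippocampus, at least 442-fold), fibronectin Fn1 (3620 ± 329.9 in liver and 99.4 ± 46.3 in hippocampus, log2 difference 5.47), syndecan Sdc1 (at least 15.9-fold), the prolyl hydroxylase subunit P4hb (3.88) and cathepsin Ctsl (2.92). Toward hippocampus they were Sparcl1 (under the floor in liver and 2228 ± 328 in hippocampus, at least 147-fold lower in liver), the testican Spock2 (at least 131-fold), Spock1 (at least 21.8-fold), Tgfb2 (at least 20.1-fold) and the brain proteoglycan brevican, Bcan (-3.95). Adjusted p-values were 2.71e-07 for P4hb, 1.07e-06 for Ctsl, 6.89e-06 for Fn1 and 0.000152 for Bcan (limma). Plg, Sdc1, Sparcl1, Spock2, Spock1 and Tgfb2 were at the floor on every array of the lower tissue. They had no spread there, so their adjusted p-values are not given as support. The counts of partners called include such genes.

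Diet was compared within liver against both control RNAs, over 3510 genes of which 30 are matrix genes. In the limma fit 0 of the 30 were called for fungal oil, fish oil, both oils or the mean of the oil diets, beside 0% of all genes in each contrast. Unadjusted p under 0.05 was reached by 4, 2, 2 and 4 matrix genes, and by 10.1%, 11.6%, 10.7% and 12.6% of all genes. The lowest adjusted p of a matrix gene was 0.483 for fungal oil, 0.395 for fish oil, 0.453 for both oils and 0.385 for any oil. The values of liver diets below are intensities as deposited.

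Counted without a test, 4 of the 30 genes read at least 2-fold below both controls with fungal oil, beside 3.39% of all genes, and 0 read at least 2-fold above, beside 1.42%. With fish oil 2 were below (3.22% of all genes) and 0 above (1.51%), and with both oils 0 were below (2.88%) and 0 above (1.68%). The 4 genes are Adam15, Plod3, Col15a1 and Fbln2, and the 2 with fish oil are Adam15 and Fbln2.

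Adam15, a membrane protein with a metalloproteinase and a disintegrin domain, read -119 with fungal oil, -150 with fish oil and 180 with both oils, against 151 and 182 in the controls. With either oil alone it was at least 11.1-fold below the controls, whereas with both oils it lay inside their range. The fitted log2 difference was -3.47 for each (SE 0.31, adjusted p = 0.483 for fungal and 0.395 for fish oil). In hippocampus Adam15 read 63 and 47 with fungal and fish oil and 10 in the control, below the brightness kept there.

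Plod3 read 69 with fungal oil, 380 with fish oil and 325 with both oils, against 368 and 313 in the controls. The fungal oil RNA alone stood apart, at a log2 difference of -2.30 (SE 0.17, adjusted p = 0.483). It was called when the fit kept only the brightest probe sets, those from the 75th percentile up, the single such call among the matrix genes. In hippocampus Plod3 read 466 with fungal oil, 482 with fish oil and 477 in the control. Col15a1 was also low in that RNA alone, with 18 for fungal oil, 63 with fish oil and 47 with both oils, against 56 and 51 in the controls (-1.57, SE 0.40, adjusted p = 0.503). Both stand on 1 probe set and 1 array. On chip A, which holds both genes and Adam15, the Gapdh ratio of the fungal oil liver RNA was 2.48, against 1.89 to 2.07 in the other 4 liver RNAs, and its part in these low values was not tested.

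Fbln2, a fibulin of elastic fibres that portal fibroblasts make, was below both controls with every oil. It read 57 with fungal oil, 69 with fish oil and 85 with both oils, against 156 and 155 in the controls. The log2 difference was -1.45 for fungal oil (SE 0.31, adjusted p = 0.499), -1.17 for fish oil (SE 0.31, adjusted p = 0.429) and -1.16 for the mean of the oils (SE 0.23, adjusted p = 0.385). On chip B, which holds Fbln2, the Gapdh ratio was 2.51 with fungal oil, 3.26 with fish oil and 1.92 with both oils, against 2.23 and 1.99 in the controls, and its part in the Fbln2 values was not tested. In hippocampus Fbln2 read 154, 92 and 111 with fungal, fish and both oils and 130 in the control, so no such gap appeared there.

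**Figure D4:**
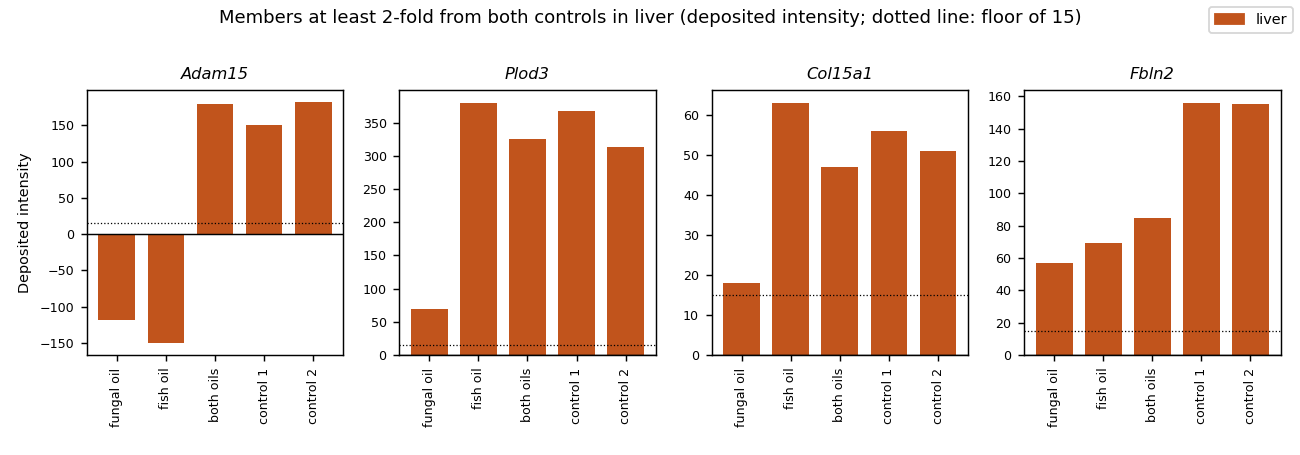
Deposited intensity in liver, 1 bar per RNA, with oil diets left of the controls and the floor of 15 dotted. Shown are the 4 genes at least 2-fold below both controls with fungal oil, among those bright enough to be kept. Adam15 is negative with either oil alone and 180 with both, Plod3 and Col15a1 are low with fungal oil alone at 69 and 18, and Fbln2 is 57 to 85 with the oils, against 156 and 155 in the controls.

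With all 3 oil diets on the same side of both controls were 6 of the 30 genes, 3 above (Adam28, Col4a2 and Thbs1) and 3 below (Fbln2, Mmp13 and Mmp14). That is 10.0% each way, beside 13.2% above and 13.2% below for all genes. Mmp14 read 99, 99 and 86 with fungal, fish and both oils, against 136 and 134 in the controls, and differed by -0.52 for the mean of the oils (SE 0.14, adjusted p = 0.403). Thbs1 read 64, 84 and 63 with fungal, fish and both oils, against 59 and 47 in the controls. Col9a2 read 308 with both oils, against 171 and 173 in the controls (0.84, SE 0.19, adjusted p = 0.453), and 185 and 165 with fungal and fish oil.

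In the fit over both tissues, diet was compared with tissue as the covariate, so that a shared shift would show. Here 0 of 59 matrix genes were called with fungal oil, fish oil or both oils, beside 0% of all 5257 genes each time. Unadjusted p under 0.05 was reached by 2, 4 and 2 of them and by 4.96%, 4.34% and 6.22% of all genes. The 2 with fungal oil were Col15a1 (-1.34, SE 0.44) and Col6a1 (1.29, SE 0.47), both with adjusted p = 0.911 (limma). With fish oil they were Col26a1 (-0.85), Col4a2 (0.57), Fbln2 (-0.95) and Thbs2, and with both oils Adam4 (1.02) and Thbs2. Thbs2, an antiangiogenic thrombospondin, had -1.11 with fish oil (SE 0.44, adjusted p = 0.904) and -1.42 with both oils (SE 0.57, adjusted p = 0.877). On chip A, where Thbs2 lies, the diet with both oils is represented by liver alone.

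In hippocampus each diet has 1 RNA, so ratios to the control RNA carry no test. With fungal oil 3 of 28 genes kept were at least 2-fold above the control, beside 3.03% of all genes, and 1 at least 2-fold below, beside 1.87%. With fish oil 1 of 28 was above (2.47% of all genes) and 2 were below (2.41%), and with both oils, on chip B alone, 0 of 14 were above (4.77%) and 2 below (2.98%).

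Lama3 counted for each of the 3 diets: it read -77 with fungal oil, 205 with fish oil and -32 with both oils, against 66 in the control, so its values ran to both sides. Timp2 read 383, 90 and 371 with fungal, fish and both oils, against 283 in the control, a log2 ratio of -1.65 with fish oil, the array with no Gapdh ratio. Mmp11 read 110 with fungal oil, 15 with fish oil and -41 with both oils, against 78 in the control, at least 5.20-fold below it with both oils. Across the 4 hippocampus RNAs, in scaled intensities, Lama3 averaged 41.0 ± 126, Timp2 284 ± 136.5 and Mmp11 40.9 ± 67.7 (SD).

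With fungal oil Lama2, the alpha chain of muscle and nerve laminin, read 125, against 44 in the hippocampus control. Col6a1 read 130 with fungal oil, against 64, and Mmp9 read 90, against 45. For Mmp9 the other oil RNAs were also above the control, at 85 with fish oil and 76 with both oils, whereas Col6a1 was 47 with fish oil and 106 with both. None of these genes was at least 2-fold from both controls in liver, where Mmp9 and Lama2 were too dim to be kept. The marker sum of choroid plexus and meninges, a brain source of collagens and Timp proteins, differed between the 3 hippocampus RNAs measured on both chips, from 1297 to 4493, and its part in these ratios was not tested.

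**Figure D5:**
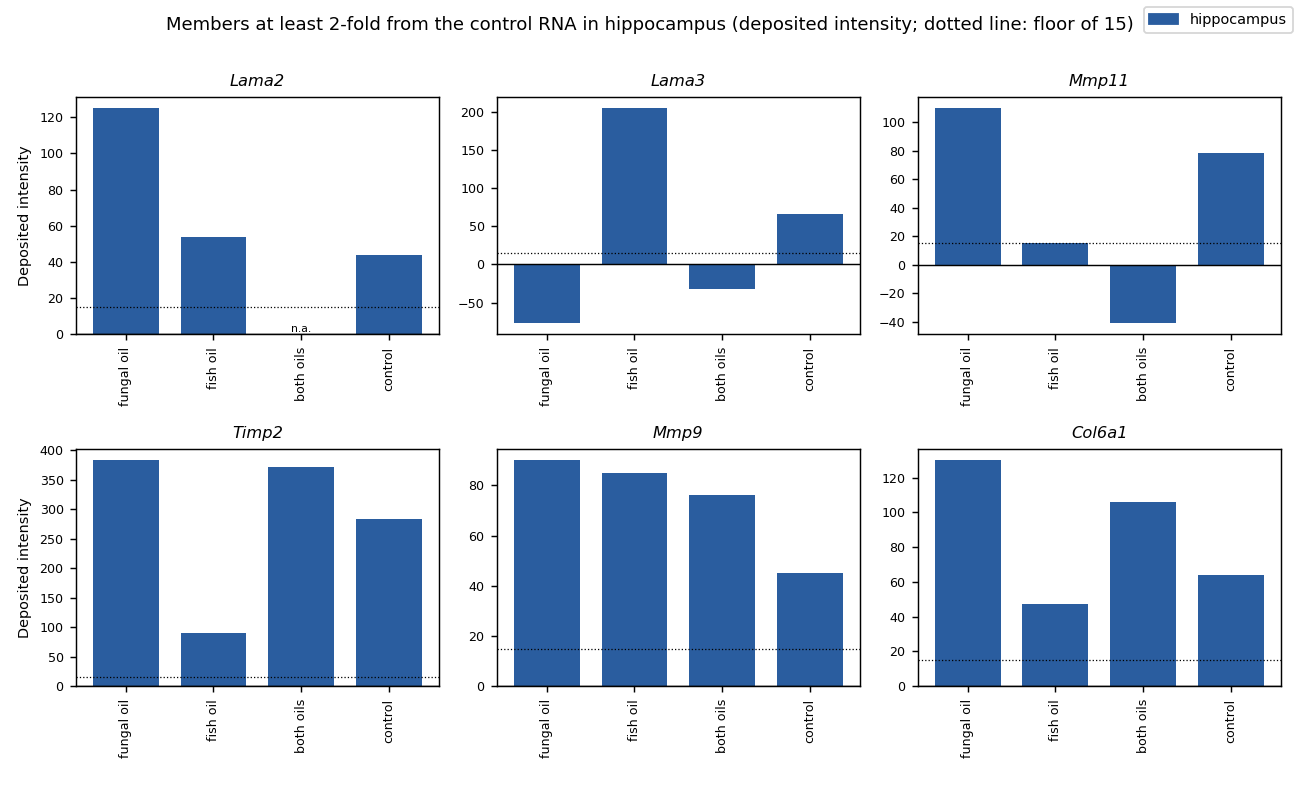
Deposited intensity in hippocampus, 1 bar per RNA, with oil diets left of the control, the floor of 15 dotted and n.a. where no array was analysed. Shown are the 6 genes at least 2-fold from the control RNA with any oil diet, among those bright enough to be kept. Lama3 lies on both sides of its control of 66, Timp2 drops to 90 with fish oil alone, and Mmp9 is 76 to 90 with the oils, against 45 in the control.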

How the data were processed

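RNA from liver and hippocampus was measured on 17 single-colour oligonucleotide arrays of 2 designs. As deposited, each array is a column of intensity values, 1 per probe set, in whole numbers that can be negative after background subtraction; how the authors scaled them is not given in the sources used here. Trimmed means were 146.127 to 149.394, and 15.2% to 34.5% of values per array were negative. The number of arrays limits the precision.

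Probe sets were named from the platform annotation, keeping those with 1 symbol (5541 on the first design, chip A, and 2001 on the second), and a gene is represented by its brightest probe set. The 69 members and all lists, named genes included, were chosen with earlier results of these data known.

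For tissues, arrays were scaled to a trimmed mean of 150 (2% trimmed), values were floored at 15 and log2 taken. Probe sets above the floor on at least 2 arrays were fitted by chip with limma 3.58.1 (R 4.3.3), tissue plus diet, with an intensity trend, and adjusted over both chips by Benjamini-Hochberg. Calls needed an adjusted p under 0.05 and 2-fold. For liver diets, deposited values of probe sets no dimmer on average than their chip's median were fitted over 4 diets. Hippocampus diets have 1 RNA each and were counted at 2-fold, without a test, among probe sets as bright. Values were given on every array for the 12 genes with the largest difference each way between tissues, and, for diets, for the 5 largest each way. The script was tested on simulated data. Alternatives were the floor, filter, normalization, probe set choice and leaving out each RNA.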

Additional observations from a re-analysis of the deposited data

Results flagged for a closer look

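Within groups of 4 or 5 RNAs of a tissue, 1 RNA stood far from the others for 6 of the 56 gene and tissue combinations looked at. Chance gives about 1 in 20 among replicates, but the RNAs of a group differ in diet. The share over all genes is not given, so the count is not read as a trait of matrix genes. Values are scaled intensities. In liver, the fungal oil RNA gave 3 of the 6: Plod3 read 69.86, against 317.2 to 385.8 in the other RNAs, Col15a1 read 18.23, against 47.58 to 63.97, and Mmp2 read 71.89, against 40.48 to 47.72. The liver RNA of the diet with both oils read 316 for Col9a2, against 169.4 to 189.7 in the others. In hippocampus, Fbln1 read -25.27 with fish oil, against 35.35 to 41.38 in the other RNAs, and Timp1 read 6.048 with fungal oil, against 30.28 to 33.35.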

How the results depend on the processing

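Counts of genes higher in liver than hippocampus kept within 1.5 times of 9 except without a filter on low values (5). Those lower in liver kept within 1.5 times of 13 except with 2.5 times the floor (6) or only the brighter genes, from the median up (6). Within these limits, quantile normalization gave 13 higher and 9 lower, the reverse of the 9 and 13 of the main fit. Leaving out an RNA gave 7 to 10 higher and 11 to 14 lower. In liver, calls for a diet number 0, but without the filter there were 2 for fungal oil, 2 for fish oil, 2 for both oils and 4 for any oil. These are Adam12, Col19a1, Adam2 and Col22a1, whose controls were both at the floor and so had no spread. Among probe sets from the 75th percentile up there was 1 for fungal oil, Plod3. Genes at least 2-fold from both liver controls numbered 6 for fish oil and 3 for both oils without the filter, and 1 for both oils with 0.5 times the floor. Against a single control they were 4 to 5 for fish oil and 2 to 4 for both oils. In hippocampus, dropping the filter gave 13 for fungal oil, 11 for fish oil and 4 for both oils, and 2.5 times the floor gave 1 for both oils. The cause of these moves was not tested, beyond the filter and floor changing which genes are counted. Of the values of single genes between tissues 306 kept their side of the threshold and 43 fell short of it. Of those of single genes with a diet in liver 34 were counted as unmoved and 6 as moved. Adam15 went to -4.47 and -2.14 with 0.5 and 2.5 times the floor, for fungal and for fish oil. Col15a1 went to -0.51 with 2.5 times the floor for fungal oil. Fbln2 with fish oil went from -1.17 to -1.13 with quantile normalization, a move smaller than its SE of 0.31. In both sets 0 values changed direction. Leaving out a liver control leaves the liver fit no residual degrees of freedom, so no test was made there. No paired analysis was possible because the groups share fewer than 2 replicate numbers. Diet was a term of the tissue fit instead, and without it 9 genes were again higher in liver and 13 lower. Low signal left 10 of the 69 genes untested.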
